A study of Danio rerio with 3 samples.

Results

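Macrophages high in mfap4 and lacc1 were studied as 120 of 593 wells, each sorted for 1 cell that carried an mpeg reporter. They were chosen by the mean level of mfap4 (ENSDARG00000088745), lacc1, pglyrp5, cebpa and chst15. Each well with at least 1000 UMIs (unique molecular identifiers, 1 per captured molecule) was scaled to 10000 UMIs and log transformed, and each gene was standardized over all kept wells. The 120 wells with the highest mean of the 5 standardized levels are called the members, and the other 473 kept wells are called the other wells. The levels of these 5 genes are therefore a description of the choice, and no comparison of members with other wells was tested.

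The cells were sorted from zebrafish embryos, used whole 5 days after fertilization, that were mutant for ptpn6, the gene of the phosphatase Shp1, or were siblings of the mutants. The labels do not split the siblings by genotype or describe the ptpn6 lesion, and the sources used here do not give the number of embryos. CEL-Seq2, which counts the 3′ ends of barcoded transcripts, was run on 3 plates of 384 wells, 1 of them shared by both genotypes on sort day 1 (siblings in the upper rows, A to H, and mutants in the lower ones, I to P) and 1 per genotype on sort day 2. On day 2 genotype and plate cannot be told apart. This gave 4 pools of wells, each of them the wells of 1 genotype on 1 plate. Kept wells numbered 131 siblings and 138 mutants of day 1, and 199 siblings and 125 mutants of day 2.

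The 5 genes belong to different arms of macrophage biology. The mfap4 gene is widely used as a macrophage marker in zebrafish. The enzyme FAMIN, the product of LACC1, acts on purine nucleosides in mammalian macrophages, and pglyrp5 belongs to the peptidoglycan recognition proteins, which bind bacterial cell wall fragments. C/EBP alpha, from cebpa, is a transcription factor of the myeloid lineage, and the chst15 product adds a sulfate group to chondroitin sulfate. In macrophages, NF-kappaB factors drive inflammatory genes such as tnfa, and the same factors switch on their own inhibitors.

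Most members were wells of the siblings of day 2, and members held more UMIs per well than the other wells over all pools. They made up 16% of the siblings of day 1 (21 of 131, exact 95% interval 10.2 to 23.5) and 11.6% of the mutants of day 1 (16 of 138, 6.77 to 18.1). On day 2 they made up 37.7% of the siblings (75 of 199, 30.9 to 44.8) and 6.40% of the mutants (8 of 125, 2.80 to 12.2). These intervals cover counting error only. The share was lower in mutants on both days, and the intervals of the genotypes overlapped on day 1 but not on day 2. The plates of day 2 differed in yield, with a median over all 384 wells of 207 UMIs for mutants and 1686 for siblings. Among the kept wells, on which the shares rest, the medians were 9964 and 9680. The part of the yield of the plates in the shares was not tested. With 2 pools per genotype, an exact permutation test of such a share cannot give a p below 0.33, and no test of the share was run. When the genes were standardized within each plate, the shares were 24.4% and 18.1% on day 1 and 23.1% and 13.6% on day 2, siblings first, and 91 of the 120 wells were shared. That setting sets each gene's mean and SD equal on the 2 plates of day 2, and so takes out any difference of genotype in them too. With the score taken after each well was thinned to 1000 UMIs, the shares were 21.4%, 10.1%, 31.7% and 12% in the same order, with 81 wells shared.

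**Figure D1:**
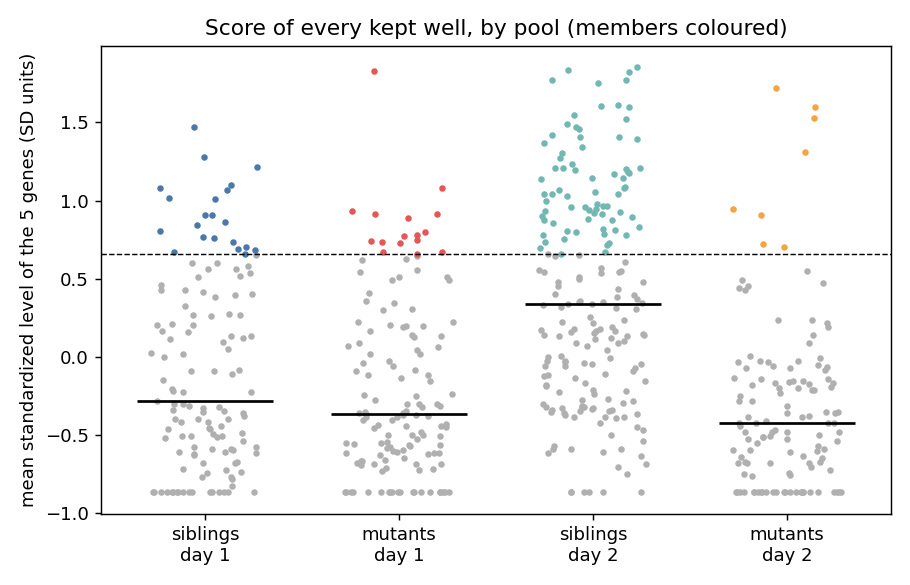
Score of each of the 593 kept wells (y axis, mean of the 5 standardized levels in SD units) in the 4 pools (x axis). Coloured points are the 120 members, grey points the other wells, black bars the pool medians and the dashed line the lowest member score of 0.656; the siblings of day 2 have the highest median, at 0.340.

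**Figure D2:**
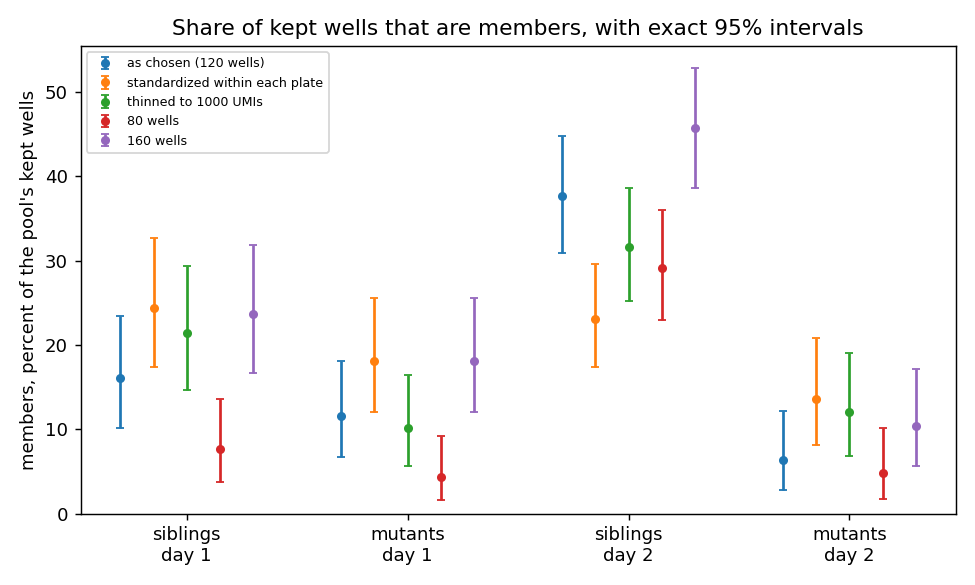
Members as a percentage of the kept wells of each pool (y axis) under 5 ways of choosing them, with exact 95% binomial intervals. In each of the 5, siblings lie above mutants of the same day; with 80 wells they are at 7.63% against 4.35% on day 1 and 29.1% against 4.8% on day 2.

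The choice did not follow a gap in the data. The lowest member score was 0.6563 and the highest score outside was 0.6559. The last well inside, of the siblings of day 2, held 10.01 UMIs of mfap4, 0 of lacc1 and 13.02 of cebpa. The first well outside, also of the siblings of day 2, held 2 UMIs of mfap4, 2 of lacc1 and 1 each of the other 3 genes. Members had a median of 10048 UMIs against 8440 in the other wells, but 6396 against 7134 in the siblings of day 1. Of the members, 23 came from the 198 wells with fewest UMIs when each pool was split by depth into 3 equal parts (11.6%), against 49 of 197 in the middle part (24.9%) and 48 of 198 in the deepest (24.2%). The part of depth in the choice was not tested. Thinned to 1000 UMIs, the members had a median of 499 genes and the other wells 523.

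The 5 genes did not all occur together in every member. All 5 had a UMI in 49 members, 4 of them in 64 members and 3 in 7 members, whereas only 6 other wells held all 5. The gene detected least often was chst15, with a UMI in 69 of 120 members and 56 of 473 other wells. The genes were detected in 114 members for mfap4, 109 for lacc1, 114 for pglyrp5 and 116 for cebpa. Across the 593 wells the Pearson correlations of gene pairs ran from 0.168 (pglyrp5 and chst15) to 0.458 (lacc1 and pglyrp5). After thinning they ran from -0.04 to 0.27. Wells share library, depth and plate, so these values describe the wells only.

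The level of mfap4, in CPM (UMIs per 1000000 UMIs summed over the wells of that group), was 1026 in members of the siblings of day 1, 535 in mutants of day 1, 1230 in siblings of day 2 and 1078 in mutants of day 2. In the other wells it was 307, 183, 345 and 135 in the same order. The lowest member pool was thus above the highest other pool. The level of lacc1 was 785, 979, 984 and 748 in members and 269, 111, 110 and 107 in other wells. For lacc1 the other wells of the siblings of day 1 stood above those of the remaining pools. The level of pglyrp5 was 896, 389, 959 and 595 in members and 212, 129, 347 and 97.5 in other wells, and that of cebpa was 766, 594, 722 and 684 against 191, 206, 220 and 133. For both genes the member and other pools did not overlap. The level of chst15 was 49.4, 232, 117 and 316 in members and 3.13, 26.2, 10.7 and 38.8 in other wells. In CPM, members of both mutant pools held more chst15 than members of both sibling pools. These member levels rest on 8, 43, 102 and 25 UMIs in the same order.

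When a gene was dropped from the score and the 120 wells were chosen again from the remaining 4, that gene was still higher in the new members. Over all pools together, the log2 ratio of members to other wells was 1.45 for mfap4, 2.05 for lacc1 and 1.72 for pglyrp5. It was 1.54 for cebpa and 1.44 for chst15. Within the 4 pools it ran from 0.60 to 2.04 for mfap4, 1.09 to 2.69 for lacc1 and 0.85 to 2.18 for pglyrp5. For cebpa it ran from 0.77 to 1.68 and for chst15 from 1.37 to 2.76. The 5 genes were set together with earlier results of these data known, so these values describe the choice and are not a test. From 101 to 107 of the original members were kept.

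**Figure D3:**
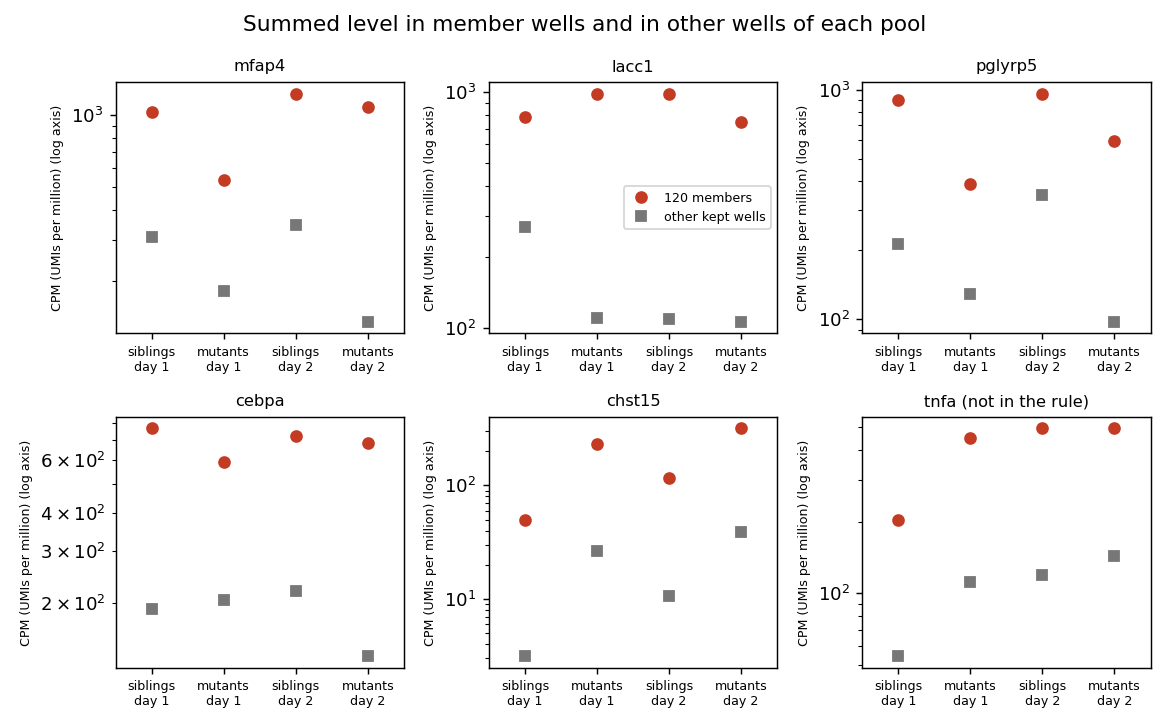
Level in CPM (y axis, log scale) of the 5 genes of the rule and of tnfa, summed over the members (circles) and over the other kept wells (squares) of each pool (x axis). For tnfa, which the rule did not use, the members of the 4 pools lie at 204 to 494 and the other wells at 54.2 to 143.

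As a summed share of UMIs, markers of macrophages other than the chosen mfap4 gene did not set the members apart. Without that ID, the macrophage list made up 0.398% to 0.595% of the UMIs of members in the 4 pools and 0.419% to 0.623% of those of other wells. Of 20 genes of the list with at least 50 UMIs, that ID among them, 2 were more than 2-fold higher in all 4 pools. Over all genes 34 of 7452 were. Above 0 in all 4 pools were 6 of the 20 and below 0 were 2, where all genes gave 612 and 1637 of 7452. The gene mpeg1, whose promoter is used in mpeg reporters, encodes a pore-forming protein, and all 3 of its IDs had UMIs in the kept wells. The 2 IDs given here had a UMI in 44 and 82 of 120 members and in 92 and 270 of 473 other wells. The name macrophage therefore rests on the sort and on markers that the other wells also held. A second mfap4 ID (ENSDARG00000090783) was at 724 CPM in members and 422 in other wells. The mfap4 family has 6 IDs in the tables and mpeg1 has 3, and the counting could have split reads between near-identical copies, so the levels of single IDs are uncertain.

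Of 7452 genes with at least 50 UMIs over the kept wells, 34 were more than 2-fold higher in members than in other wells in all 4 pools (0.456%), the 5 rule genes among them, and 180 were more than 2-fold lower (2.42%). Members and other wells were defined on values of the same wells, so these counts describe the choice and are not a test. Ratios were taken on summed UMIs with 0.5 added to each sum. For a gene with few UMIs this raised the ratio where members held fewer of its UMIs than other wells did. KLF12 in the mutants of day 2, with 3 UMIs against 21, was at 37.9 and 17.3 CPM and had a log2 ratio of 1.32. The median log2 ratio over all 7452 genes was -0.29, and over the 1401 genes with at least 500 UMIs it lay between 0.00 and 0.06 in each pool. Centred on that median, 34 genes were higher and 200 lower.

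Inflammatory genes of the NF-kappaB pathway were among the genes higher in the members. The gene of the cytokine TNF, tnfa, was at 204 CPM in members of the siblings of day 1, 449 in mutants of day 1, 494 in siblings of day 2 and 494 in mutants of day 2, against 54.2, 111, 119 and 143 in other wells. Its log2 ratio lay between 1.80 and 2.05, and the member and other pools did not overlap. The gene was named by its place in a ranking on these same ratios, so both statements describe the choice. A tnfa UMI was found in 72 members (60%) and 161 other wells (34%), and 6 of the 21 members of the siblings of day 1 held all 33 tnfa UMIs of those members. With the score taken after thinning, the lowest of the 4 ratios for tnfa was 0.12 and the highest 1.61. The gene bcl3, an atypical IkappaB protein, ran from 284 to 367 CPM in member pools and from 81.1 to 144 in other pools.

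Of the 13 inflammatory genes with enough UMIs, tnfa passed the 2-fold rule and 6 were above 0 in all 4 pools, where all genes gave 612 of 7452. This list was drawn up with earlier results of these data known. The IkappaB genes nfkbiaa and nfkbiab, inhibitors that NF-kappaB induces, had log2 ratios of 0.60 to 0.95 and 0.58 to 1.08. ACOD1, the itaconate-producing enzyme, was at 4966 CPM in members and 2339 in other wells (log2 0.70 to 0.90), and TNFAIP3, which encodes the NF-kappaB inhibitor A20, at 2737 and 1701 (0.42 to 1.22). The NF-kappaB subunit gene nfkb2, from the list of myeloid transcription factors, had ratios of 0.61 to 1.00. Of the 29 genes of that list, 4 were above 0 in all 4 pools and 10 below 0, where all genes gave 1637 of 7452 below 0. The largest ratios of that list outside the rule, among genes with at least 50 member UMIs, were all below 0. They were those of RUNX3 (-2.13 to -0.71), NR4A3 (-1.83 to -0.01) and NR4A1 (-1.75 to -0.59). In the other direction on the inflammatory list, MMP9, a matrix protease gene, was at 43.1 in members and 159 in other wells. Its ratios were -2.21 to -0.71. The remaining named example, PTGS2, one of 2 IDs for the prostaglandin synthase, ran from -2.24 to 2.87, with 1 UMI in the members of the mutants of day 1.

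Genes of the phagocyte NADPH oxidase, which makes superoxide, were above 0 in all 4 pools for 3 of 6 genes, where all genes gave 612 of 7452. None passed the 2-fold rule. NCF1 was at 1547 CPM in members and 858 in other wells (log2 0.47 to 1.49), and cybb at 261 and 161 (0.45 to 1.03). NCF4 went from -3.67 to 0.27. Among the pattern receptors, the scavenger receptor gene marco had a UMI in 110 of 120 members and 244 of 473 other wells, with ratios of 0.86 to 1.87. Of the sulfation genes, HS6ST1, which sulfates heparan sulfate, was at 87.7 in members and 34 in other wells (0.93 to 1.33), and CHST11, a chondroitin sulfotransferase, ran from -0.56 to 2.56.

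The 25 genes with the highest lowest-of-4 ratio outside the rule included 6 IDs without a symbol, and 21 of the 25 passed the 2-fold rule. Among them, f3b, a zebrafish gene for tissue factor, the starter of blood clotting, was at 321, 1275, 1040 and 862 CPM in the members of the 4 pools, and at 143, 518, 340 and 354 in other wells. Members of the siblings of day 1 were below the other wells of the remaining 3 pools, so the groups overlapped. The gene c1ql1, of the C1q-like secreted proteins, ran from 1094 to 1541 in member pools and from 253 to 702 in other pools. Further genes of that group were cd22, an inhibitory lectin gene in mammalian B cells (1.64 to 2.51), XKR8, a phospholipid scramblase (1.2 to 2.05), the corepressor gene TLE3 (1.22 to 2.14), and ank2b, an ankyrin (1.12 to 1.84). The olfactomedin-like gene olmf4l1 had a UMI in all 120 members, with 3075 to 5452 CPM over member pools and 967 to 2339 over other pools. Of the IDs without a symbol, ENSDARG00000005419 stood at 7118 CPM in members and 1975 in other wells, and ENSDARG00000086947 at 4497 and 1377.

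**Figure D4:**
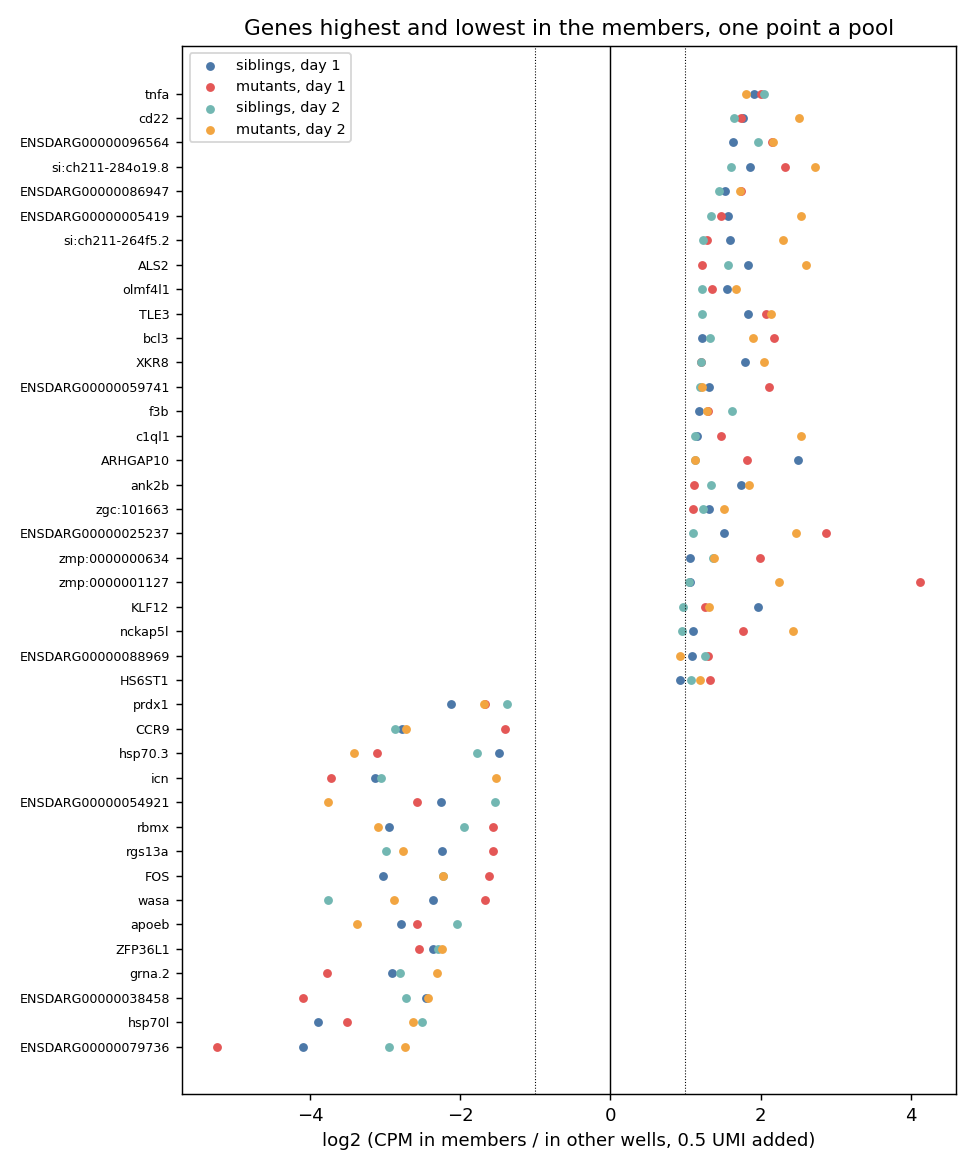
Log2 ratio of CPM in members to that in other wells (x axis) for the 25 genes that were highest in members and the 15 that were lowest (y axis), 1 point per pool, with dotted lines at a 2-fold difference. Points of all 4 pools lie right of 0 for the 25 genes, with tnfa at 1.80 to 2.05, and left of 0 for the 15, with hsp70l at -3.89 to -2.51.

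The genes whose level rose and fell with the score over wells, each measured after thinning to 1000 UMIs, were partly the same. Pearson's r with the score was 0.537 for ENSDARG00000005419, 0.467 for ENSDARG00000086947, 0.463 for olmf4l1, 0.438 for ACOD1, 0.396 for marcksl1b, 0.352 for nfkbiaa, 0.323 for samsn1a and 0.310 for STX11. The lowest values were -0.279 for cd83, -0.268 for CCR9 and -0.251 for CXCR4 (ENSDARG00000041959). These are correlations across 593 wells that share plates and depth, and are given as a description.

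Among the genes lower in the members were some markers of other cell types. The apolipoprotein gene apoeb, a marker of microglia, was at 165 CPM in members and 624 in other wells (log2 -3.38 to -2.04), and apoc1 was at 645 and 1829 (-2.32 to -0.78). Of 10 microglia markers 1 passed the rule for lower genes and 3 were below 0 in all 4 pools, where over all genes 1637 of 7452 were, and the list took 0.177% to 0.297% of the UMIs in members and 0.269% to 0.675% in other wells. Of 3 metaphocyte markers, 2 passed as lower, where over all genes 180 of 7452 did. Of these markers, grna.2, a granulin gene, was at 61.5 in members and 673 in other wells, and its ratios were -3.77 to -2.31. Detection went the other way, with a grna.2 UMI in 46.7% of members and 36.6% of other wells. For apoeb these shares were 54.2% and 48.6%, and for apoc1 91.7% and 86.9%. The other metaphocyte marker that passed, icn, had a UMI in 28.3% and 33.8%. After thinning, the shares were lower in members, at 6.67% and 10.1% for grna.2 and 12.5% and 22.8% for apoeb. The homing receptor genes CCR9 (82.3 and 559) and CXCR4 (ENSDARG00000041959, 1 of 2 IDs of that name, 70 and 360) were lower in all 4 pools, at -2.87 to -1.41 and -2.53 to -1.27. A UMI of CCR9 was found in 42.5% of members and 59.6% of other wells, and of this CXCR4 ID in 38.3% and 60.7%.

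Of 16 genes of the heat shock list, 10 were below 0 in all 4 pools, where over all genes 1637 of 7452 were. The list as a whole took 1.39% to 2.1% of the UMIs in member pools and 1.42% to 2.1% in other pools. The heat shock gene hsp70l was at 102 CPM in members and 589 in other wells, and hsp70.3 at 57.1 and 229; of 16 heat shock genes, 4 passed the rule for lower genes and 2 were above 0 in all 4 pools. These are families of near-identical copies, and 3 wells held 770 of the 982 hsp70l UMIs in other wells of the siblings of day 2. Of 16 oxidative stress genes, 1 passed as lower, and slc7a11 and the ferritin gene fthl27 were above 0 in all 4 pools. Of 15 cell cycle genes, 4 passed as lower and 8 were below 0 in all 4 pools. Of 77 genes of oxidative phosphorylation, 31 were below 0 in all 4 pools and none passed. Of 73 ribosomal protein genes, 19 were above 0 in all 4 pools and none passed. Over all 7452 genes, 612 were above 0 in all 4 pools and 180 passed as lower. The zinc finger gene ZFP36L1 (ENSDARG00000016154), an mRNA decay factor, ran from -2.54 to -2.25, the narrowest span of the 15 lowest genes, and the immediate early gene FOS from -3.03 to -1.61. The antigen presentation genes cd74a (276 and 542) and cd83 (176 and 582) had ratios of -1.92 to 0.81 and -2.64 to -0.28.

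The members overlapped unequally with wells chosen by other markers in the same way. Of the 120 wells highest in apoeb and apoc1, 8 were members (6.67%), against 21 (17.5%) of those highest in ctsk and acp5 and 33 (27.5%) of those highest in slc7a11 and tinagl1, where members were 20.2% of all kept wells. The cystine transporter gene slc7a11 was at 260 CPM in members and 121 in other wells. Of 5 osteoclast markers with enough UMIs, none passed the 2-fold rule in either direction. The protease gene ctsk was at 26.2 in members and 192 in other wells, and at 551 in the other wells of the mutants of day 2. In the opposite direction, tnfrsf11a, which encodes the receptor RANK, was at 232 in members and 135 in other wells and above 0 in all 4 pools. The gene ocstamp was at 523 and 324, with ratios of -0.45 to 1.03, the lowest in the mutants of day 2.

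Genotype was then compared within the members, which asked whether members of ptpn6 mutants differed from members of siblings. UMIs were summed per pool, from 79053 in the mutants of day 2 (8 wells) to 873622 in the siblings of day 2 (75 wells). By the quasi-likelihood test of edgeR, with 2 pools per genotype, 0 of 1914 genes passed an adjusted p of 0.05 (0%), and 56 had an unadjusted p under 0.05. With sort day as a block, 0 passed and 105 had an unadjusted p under 0.05, and DESeq2's Wald test called 2, TIMP2 and si:dkey-119g10.4. Nothing in the labels says that the pools of a genotype came from separate clutches, so these p-values reflect how far the pools differ from each other, which could be technical.

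Of the 11 genes outside the rule with the smallest unadjusted p, 7 stood higher in mutants on both days and 4 lower, and all are given as values that did not pass. Over all 1914 genes, 528 were higher in mutants on both days and 415 lower. The gene si:dkey-6n3.3 was at 98.8 CPM in members of the siblings of day 1, 561 in mutants of day 1, 24 in siblings of day 2 and 2657 in mutants of day 2 (log2 4.86, SE 0.88; edgeR adjusted p = 0.687, and 0.0804 with the sort-day block). In other wells it was at 911 and 5741 in mutants and 70.9 and 37.4 in siblings. In the members of the mutants, 3 wells held 93.60 of its 104 UMIs on day 1 and 171.60 of 210 on day 2. The gene si:dkey-119g10.4 was at 55.6 and 71 in siblings and 205 and 1430 in mutants (log2 3.5, SE 0.79), txnb, a thioredoxin, at 30.9 and 26.3 against 135 and 266, and lgals9l1, a galectin, at 61.7 and 57.2 against 248 and 240. In members of the mutants of day 2, 3 wells held 88.62 of the 113 UMIs of si:dkey-119g10.4. For txnb, 3 wells of that pool held 16.01 of 21 UMIs, and for lgals9l1 17.02 of 19. The genes were picked for a small p in the same pools, so these levels describe the choice. In other wells si:dkey-119g10.4 was also higher in mutants, at 67.8 and 81.6 in siblings and 753 and 3734 in mutants. There txnb was at 62.6 and 56.4 against 138 and 350, and lgals9l1 at 99.1 and 116 against 211 and 599. The annexin gene anxa5b was low, with 1 and 7 UMIs in members of siblings against 12 and 6 in those of mutants, and cfbl, a complement factor B-like gene, had 3 and 8 against 14 and 10. The ubiquitin ligase gene NEURL1 was at 74.1 and 143 CPM in siblings and 399 and 291 in mutants. In members of the mutants, 3 wells held 54.13 of its 74 UMIs on day 1 and 21.02 of 23 on day 2. In other wells anxa5b was also higher in mutants on both days, cfbl only on day 2 and NEURL1 only on day 1.

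Lower in mutants on both days were TIMP2, an inhibitor of matrix proteases, at 1012 and 524 CPM in members of siblings and 156 and 190 in mutants (log2 -2.20, SE 0.43, edgeR adjusted p = 0.687), and ccl34b.1, a chemokine, at 636 and 1326 against 297 and 253. The apolipoprotein gene apoc1 was at 1093 and 671 against 259 and 354, and its members of the siblings of day 1 held 145.77 of 177 UMIs in 3 wells. HSPA8, a chaperone, was at 10673 and 9393 against 4871 and 8022. In other wells TIMP2, ccl34b.1, apoc1 and HSPA8 were lower in mutants on both days too, TIMP2 at 294 and 166 against 132 and 73.5. Of the rule genes, whose values chose the members, pglyrp5 stood at 896 and 959 in siblings and 389 and 595 in mutants, which is given without a test.

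**Figure D5:**
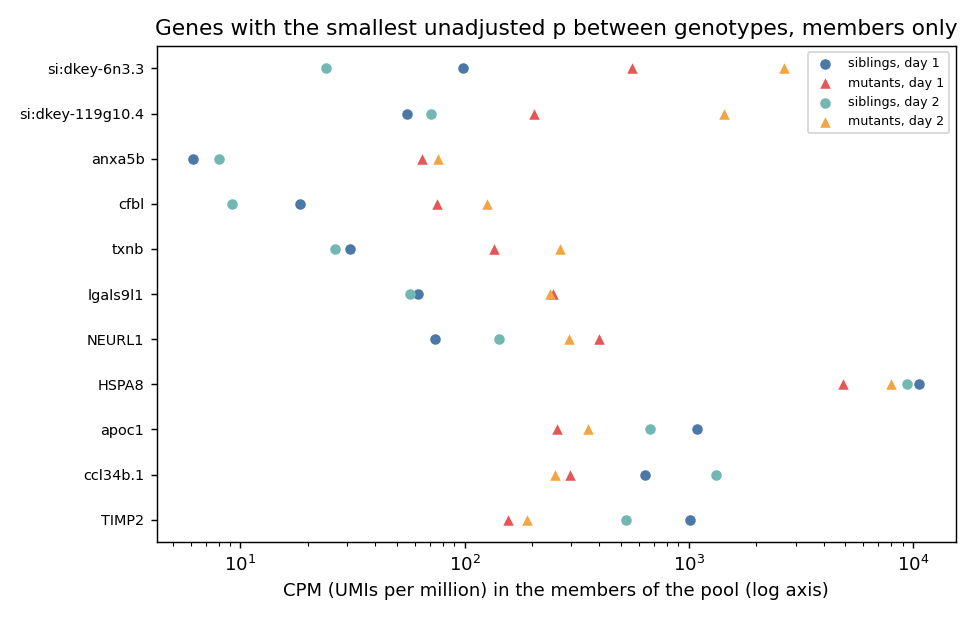
Level in CPM (x axis, log scale) in the members of each of the 4 pools, circles for siblings and triangles for mutants, of the 11 genes outside the rule with the smallest unadjusted p between genotypes (y axis). None passed an adjusted p of 0.05; si:dkey-6n3.3 runs from 24 in siblings of day 2 to 2657 in mutants of day 2.

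The genes that marked the members did not pass between genotypes. All 25 leading genes were tested, with log2 values from -0.82 to 0.62 and a median of -0.22, beside -0.00 over all 1914 genes, and 0 passed. Among them, tnfa had 0.36 (SE 0.43) and olmf4l1 -0.60 (SE 0.21), and ACOD1, from the inflammatory list, had -0.61 (SE 0.23); all 3 had an edgeR adjusted p of 0.996. Of 9 inflammatory genes, 7 were below 0 with a median of -0.37, where over all genes 959 of 1914 were below 0. Of 71 ribosomal protein genes, 70 were below 0 with a median of -0.31, and 59 were lower in mutants on both days, where all genes gave 415 of 1914. Siblings first, the ribosomal list took 16.3% and 12.7% of the UMIs of members on day 1, and 17.2% and 15.3% on day 2. In other wells it took 15.7% and 12.6% on day 1, and 15.4% and 14.7% on day 2, so it was lower in mutants there too. Of 19 lysosome genes, 16 were above 0, with a median of 0.18, where over all genes 955 of 1914 were above 0. By share of UMIs, in members and in other wells alike, the inflammatory list was lower and the lysosome list higher in mutants on both days. None of these genes passed.

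Whether genotype moved the members and the other wells differently was tested with an interaction term, with each pool as a block. Of 7822 genes, 3 passed with a higher value in members (0.0384%) and 15 with a lower one (0.192%) by edgeR's quasi-likelihood test, and 317 had an unadjusted p under 0.05. The median interaction over all 7822 genes was -0.28 with this TMM scaling; scaled by library totals alone it was -0.01, and 8 genes passed higher and 14 lower. The cathepsin gene ctsl.1 had an interaction of 2.43 on the log2 scale (SE 0.38, adjusted p = 2.2e-07). It was at 599, 1435, 808 and 127 CPM in the members of the 4 pools and at 699, 320, 1030 and 15.7 in other wells, so members exceeded other wells in both mutant pools and fell below them in both sibling pools. In the members of the mutants of day 1, 3 wells held 191.49 of 266 UMIs, and in those of the mutants of day 2 there were 10 UMIs in 3 wells. NEURL1, with most UMIs of each mutant member pool in 3 wells, had 2.56 (SE 0.52, adjusted p = 6.3e-04) and cfbl 3.27 (SE 0.85, adjusted p = 0.0497), by the same test. In that test a gene's own variability between sums was not used.

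The genes that passed in the lower direction included pvalb2, pvalb1 and TNNT3 of the list of muscle markers. Parvalbumins bind calcium in muscle, and TNNT3 encodes a troponin. In the other wells of the mutants of day 1, 9207 UMIs of pvalb2 were found, 8559.51 of them in 3 wells, against 606 in the other wells of the siblings of day 1. Muscle markers took 1.24% of the UMIs of those wells and at most 0.126% of the UMIs of any member pool. When the 2% deepest wells of each plate were left out, ctsl.1 and NEURL1 passed and no other gene did. Without a block for the pool, 0 genes passed and 168 had an unadjusted p under 0.05, and DESeq2's Wald test called ctsl.1.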

How the data were processed

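Macrophages with an mpeg reporter were sorted into 3 plates for CEL-Seq2, as the labels' protocols state. The authors deposited expected counts of UMIs for each gene in each well, adjusted for UMI collisions as far as the values show; undoing the adjustment gave whole numbers, within 0.005, for 100% of values. BWA and the genome build Zv9 are named in the submitters' processing notes; the sources used here do not give the counting step. Well numbers 1 to 384 were read row by row from A1, since the files carry no well names; kept wells fell unevenly over columns 1 to 12 and 13 to 24 on 2 plates (140 against 59, 83 against 42). Symbols came from a table that matched 17027 of 21915 IDs, holding 75.9% of the UMIs, and are printed as it gives them, some in capitals. The 88 spike-in IDs were left out. No doublet caller was run.

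The members and all gene lists were chosen with earlier results of these data known. Lists were matched by symbol, else without the paralogue letter, else without the numbered suffix. Ratios of members to other wells used genes with at least 50 UMIs and 0.5 UMI added. Named genes were the 25 highest by their lowest ratio of the 4 pools and the 15 lowest by their highest, with a UMI in at least 25% of member or other wells; per test, up to 12 per direction with adjusted p under 0.05 and 1 direction on both days, else the 12 smallest p; list examples with at least 50 member UMIs and the largest ratios, with others of the lists named after their values were seen; and the 10 genes most like the score.

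Sums per pool were rounded and tested with edgeR 4.0.16 (quasi-likelihood, TMM, Benjamini-Hochberg, default filter; limma 3.58.1), with DESeq2 1.42.0 as an alternative, in R 4.3.3. The sort day in the labels marks pools that share a day, so sort day was used as a block in an alternative fit; the interaction fit had each pool as a block. In the interaction fit the variability of a gene between sums was taken wholly from all genes together. Its p-values therefore do not reflect how a single gene varied. Wells were handled in Python 3.11.15 with pandas 2.3.3, numpy 2.4.6 and SciPy 1.17.1. The genotype fit was also run on simulated counts, with the same set variability for all genes. That run does not show what the fit could have detected in these pools.

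Every member held at least 1609 UMIs, and pool sums ran from 79053 to 873622 UMIs in members.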

Additional observations from a re-analysis of the deposited data

Results flagged for a closer look

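Genes below are those named for an effect of genotype that differed between members and other wells by the interaction test of edgeR, with the difference in log2 units, mutants over siblings in members less the same in other wells. Higher in members were cfbl (3.27), NEURL1 (2.56) and ctsl.1 (2.43). All 3 lost their calls with the 80 wells of highest score, with the score after thinning and with no block for the pool. By DESeq2, cfbl and NEURL1 did not pass, and cfbl also lost its call without the 2% deepest wells. With 1 pool left out, ctsl.1 passed each time, NEURL1 did not without the mutants of day 1 or the siblings of day 2, and cfbl passed only without the mutants of day 2.

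Lower in members were MYL11 (ENSDARG00000002589; -4.13), pvalb2 (-3.70), pvalb1 (-3.61) and MYL1 (-2.12), all genes of muscle, and ENSDARG00000037840 (-3.72). In the other wells of the mutants of day 1, 3 wells held 717.07 of 747 UMIs of this MYL11 ID. By gene, 3 wells of that group held 8559.51 of 9207 for pvalb2 and 3026.01 of 3293 for pvalb1. They held 2339.75 of 2906 for MYL1 and 4353.10 of 4638 for ENSDARG00000037840. The part of such wells in the result was not tested beyond dropping the 2% deepest wells of each plate. After that none of these genes passed, and of them only this MYL11 ID changed sign.

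The remaining genes were ENSDARG00000077505 (-3.39), si:ch211-198c19.3 (-2.04), si:dkey-119g10.4 (-1.69) and ENSDARG00000070622 (-1.28). Of the last, 3 wells held 345.02 of 416 UMIs in members of the siblings of day 1.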

How the results depend on the processing

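The share of members was lower in mutants than in siblings of the same day in every setting run. With 80 wells the shares were 7.63%, 4.35% and 29.1% in siblings of day 1, mutants of day 1 and siblings of day 2, and with 160 wells 23.7% and 45.7% in siblings of days 1 and 2. Standardized within each plate they were 24.4%, 23.1% and 13.6% in siblings of day 1, siblings of day 2 and mutants of day 2. Genes more than 2-fold higher in all pools numbered 34, but 11 with the score after thinning, of which 5 were shared; 116 at 1.5-fold and 8 at 3-fold. Leaving out 1 pool gave 43 to 91 genes. Lower genes numbered 180, but 112 with 80 wells, 473 at 1.5-fold, 44 at 3-fold, and 287 to 400 without 1 pool. Of the 25 leading genes, 22 stayed above 0 in all pools with the thinned score and 1 passed 2-fold; nckap5l turned to -0.48 with 80 wells. All 15 lowest genes stayed below 0 in each setting run.

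Within members, the replicate block by sort day gave 0 genes, as did the fit without it. DESeq2 gave 2, no filter 20, and leaving out 1 pool 0 to 5, highest without the mutants of day 1. The interaction gave 18, but 1 by DESeq2, 0 with no replicate block, 11 with 80 wells, 2 without the 2% deepest wells, and 6 to 21 without 1 pool. MYL11 (ENSDARG00000002589) turned to 0.26 without the 2% of wells; ENSDARG00000077505 to 0.053 with the thinned score, with -4.12 to 3.94 without 1 pool; ENSDARG00000070622 to 0.78 with 160 wells, 1.23 within plates and 0.12 thinned, with -2.55 to 0.064 without 1 pool. The causes were not tested. Centring on the median was chosen after seeing the data. Without the pool of fewest members and UMIs, the mutants of day 2, the fits gave 0 genes within members and 21 in the interaction.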
